A study of Rattus norvegicus with 20 samples.

Results

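Caprin2 and Caprin1 were followed in the supraoptic nucleus (SON) of the rat, the hypothalamic nucleus whose magnocellular neurones make vasopressin (Avp) and oxytocin (Oxt). These are the 2 genes of the Caprin RNA-binding family among the 32402 Ensembl genes of the deposited tables, taken by their symbols as ENSRNOG00000047319 (Caprin2) and ENSRNOG00000009152 (Caprin1). The study compared male Wistar Han rats aged 3 months (adult) and 18 months (aged), which had free access to water (euhydrated, EH) or had none (dehydrated, DH), with 5 rats in each of the 4 groups. The labels give DH as 2 days, whereas the methods give 72 h. Poly(A) RNA from SON punches was sequenced, 1 library per rat. The adult data had been published before, and the methods state that tissue and RNA from both ages were handled and sequenced together.

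Caprin1 is a cytoplasmic RNA-binding protein found in most cells. It binds G3bp1 and Fmr1, joins stress granules when translation is halted and travels in the RNA granules of neuronal dendrites. Caprin2 is its vertebrate relative and carries a C1q-like domain at its end. It has been described as a partner of the Wnt co-receptor Lrp6, and in the SON as a protein that binds vasopressin mRNA, whose poly(A) tail lengthens when the animal is osmotically challenged.

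The 250 bases before the start of each gene are shown because the members differed in their response while belonging to the same family. The sequences are from RefSeq on GRCr8, are written 5′ to 3′ on the minus strand, on which both genes lie, and have CCGGAA and GGGCGG (or their reverse complements TTCCGG and CCGCCC) in capitals. The Caprin2 window is chr4:183592103-183592352, and RefSeq gives Caprin1 windows at chr3:110641059-110641308 and chr3:110640484-110640733.
Caprin2: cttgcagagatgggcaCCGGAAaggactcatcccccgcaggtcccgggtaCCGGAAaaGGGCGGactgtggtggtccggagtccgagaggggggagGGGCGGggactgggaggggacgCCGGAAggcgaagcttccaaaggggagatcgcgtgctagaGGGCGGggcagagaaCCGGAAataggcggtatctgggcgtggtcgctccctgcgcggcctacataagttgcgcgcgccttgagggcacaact
Caprin1, upstream start: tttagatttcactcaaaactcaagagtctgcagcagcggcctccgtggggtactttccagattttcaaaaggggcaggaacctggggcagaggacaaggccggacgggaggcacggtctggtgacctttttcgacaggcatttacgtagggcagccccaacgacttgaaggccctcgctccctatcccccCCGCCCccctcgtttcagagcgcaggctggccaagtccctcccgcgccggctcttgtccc
Caprin1, downstream start: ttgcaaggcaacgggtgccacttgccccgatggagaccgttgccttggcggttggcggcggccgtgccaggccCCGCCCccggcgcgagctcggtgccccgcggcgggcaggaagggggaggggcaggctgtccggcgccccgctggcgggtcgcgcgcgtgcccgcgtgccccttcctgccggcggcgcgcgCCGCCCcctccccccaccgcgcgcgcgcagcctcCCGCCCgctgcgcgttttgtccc
The Caprin2 window was 66.4% G and C with 23 CpG, and the Caprin1 windows were 60.8% with 15 CpG and 80.4% with 40 CpG, against medians of 51.2% and 5 CpG over 33469 RefSeq windows of the rat. CCGGAA occurred 4 times before Caprin2, at positions -234, -200, -132 and -77 from the start, and at least 4 copies were present in 0.137% of all windows. Neither Caprin1 window held it, and 12.6% of all windows held at least 1 copy. GGGCGG occurred 3 times before Caprin2, and 7.41% of windows held at least 3 copies. It occurred once in the upstream and 3 times in the downstream Caprin1 window. Both motifs were picked after these sequences had been read, and a match describes the letters only. None of 7 other motifs searched on both strands occurred in these windows. They were the cAMP response element (TGACGTCA), its shorter form (TGACG), which lies within it, the AP-1 element (TGANTCA, where N is any base), the early growth response elements GCGTGGGCG and GCGGGGGCG, the E-box (CACGTG) and the TATA box (TATAAA). The end of GCGGGGGCG can overlap GGGCGG. Of all windows, between 0.478% and 18.2% held each of them.

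Values are normalized counts, which are reads per gene divided by a size factor of the library, and each library summed to between 25931931 and 28689164 of them, from 24268398 to 30348118 reads. The tissue is known as SON from the punching. The hormone mRNAs of magnocellular neurones were abundant in it, with Avp averaging 163773 to 238932 and Oxt 79666 to 111627 normalized counts in the groups. Of the 10 magnocellular markers only Galp had a mean below the minimum of 10 normalized counts set for testing. Lengths of the transcripts were not at hand, so the levels of Caprin2 and Caprin1 cannot be compared with each other, and the ratio of their counts, given further on, serves only to compare rats and groups. RefSeq lists a Caprin1 pseudogene on another chromosome (Caprin1-ps1), non-coding genes that overlap Caprin1 and a pseudogene (LOC108350798) within Caprin2. The sources used here do not say how reads shared with them were counted or with which strand setting.

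The first question was how the Caprin mRNAs responded to DH in adult rats. Caprin2 rose 3.52-fold in adult DH, while Caprin1 did not pass the test. In adult EH rats 1, 2, 4, 5 and 6 the Caprin2 normalized count was 2575, 1861, 2740, 2650 and 2478, with a mean of 2461 ± 349 (SD, n = 5). In adult DH rats 1 to 5 it was 7661, 8120, 8950, 9526 and 8840, with a mean of 8619 ± 733 (SD, n = 5). All 5 DH rats lay far above all 5 EH rats, with EH rat 2 the lowest of all. The log2 fold change (LFC) was 1.82 (SE 0.0910, 95% interval 1.62 to 2.01; limma adjusted p = 7.64e-08), which corresponds to a fold of 3.52 (95% interval 3.08 to 4.04). In this comparison 12.7% of 15280 genes were differentially expressed (DEGs), 7.67% being higher and 4.99% lower in DH, and the groups did not overlap for 10.9% of genes. Caprin2 ranked 4 by p-value and 20 by LFC among the 15280 genes.

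Caprin1 did not pass the test. Its normalized count was 7578, 7689, 7585, 8108 and 8202 in the adult EH rats, a mean of 7832 ± 300 (SD, n = 5). In the adult DH rats it was 8083, 8275, 7970, 8476 and 7882, a mean of 8137 ± 240 (SD, n = 5). The groups overlapped, and the LFC of 0.06 had a 95% interval from -0.01 to 0.12 (limma adjusted p = 0.292). Its spread between rats was small, since only 20.2% of genes in adult EH and 9.85% in adult DH had a smaller SD of log2 values.

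In bulk samples fewer cells of a type and less RNA per cell cannot be told apart, so markers of the cells in the punch are given beside the result. Over all genes tested 7.67% were higher and 4.99% lower in adult DH. Of 9 magnocellular markers tested, 2 had an LFC below 0 and 4 were called higher. They were Avp, the opioid precursor gene Pdyn, the nitric oxide synthase gene Nos1 and the small G protein gene Rasd1. The sum of the list, most of which is Avp and Oxt, was 215222 to 307320 in adult EH and 311468 to 410653 in adult DH, so the groups did not overlap. Of the oligodendrocyte markers 2 of 8 were lower, with sums of 247384 to 316272 in DH and 259725 to 379792 in EH. Of 8 markers of other forebrain neurones 1 was lower (7841 to 13928 in DH, 10478 to 18120 in EH), and of 7 meningeal and fibroblast markers 1 was higher (22857 to 28572 in DH, 22306 to 26862 in EH). Astrocyte, microglial and endothelial markers did not pass. The part of these cells in the Caprin2 result was not tested.

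**Figure D1:**
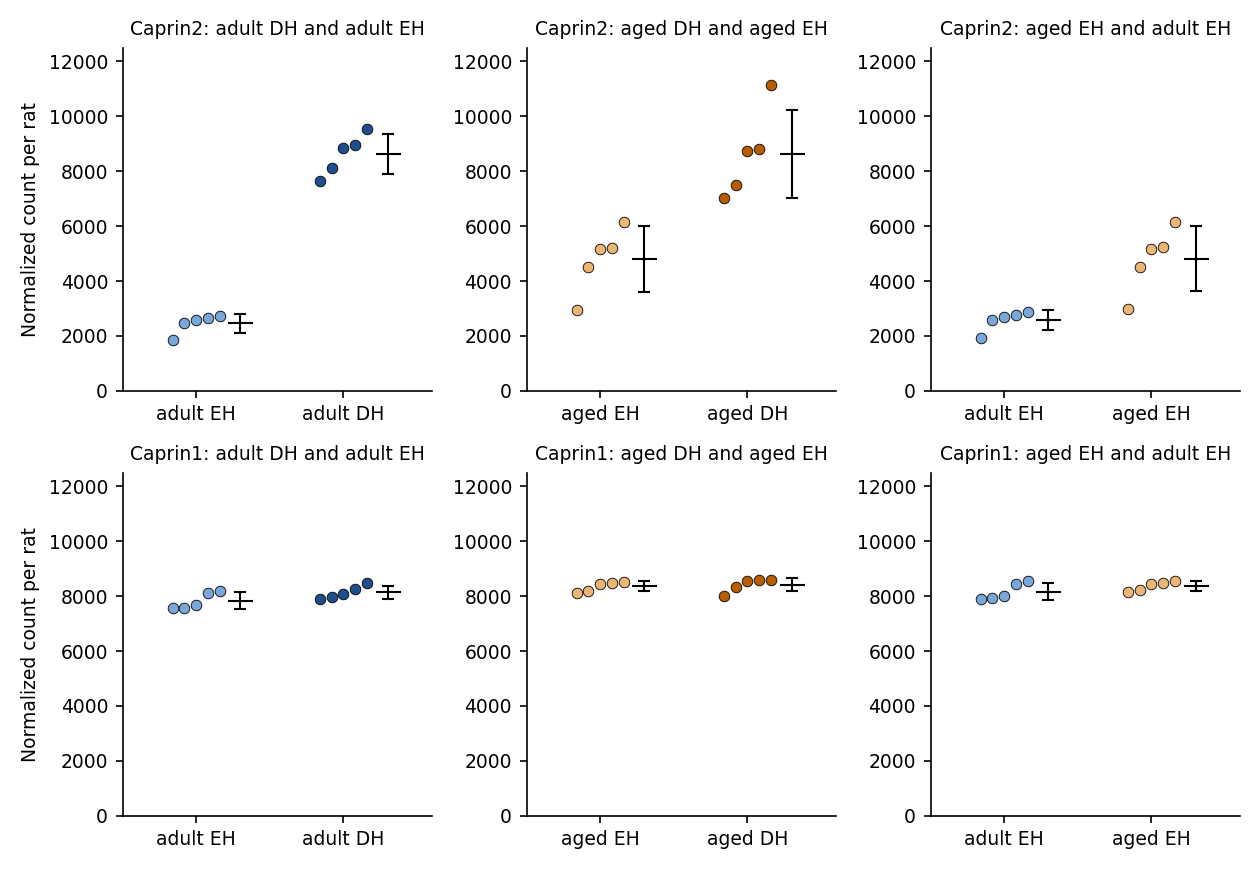
Normalized counts of Caprin2 (top row) and Caprin1 (bottom row) in each rat, with 1 column for each comparison. Points are rats and the bar beside them is the mean ± SD (n = 5). The Caprin2 groups separate in all 3 columns, most widely in adult DH (7661 to 9526 against 1861 to 2740 in adult EH), while the Caprin1 points stay between 7578 and 8597 in every group.

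The second question was whether aged rats responded likewise. Caprin2 rose 1.83-fold in aged DH. In aged EH rats 1, 2, 4, 5 and 6 its normalized count was 5217, 5159, 6160, 4517 and 2949, with a mean of 4800 ± 1190 (SD, n = 5). In aged DH rats 1, 2, 3, 5 and 6 it was 8738, 7496, 11147, 8795 and 7023, with a mean of 8640 ± 1600 (SD, n = 5). The groups again did not overlap, although EH rat 6 and DH rat 3 stood away from the other rats of their groups. The LFC was 0.87 (SE 0.163, 95% interval 0.52 to 1.22; limma adjusted p = 0.00528). In aged DH 7.29% of 15346 genes were DEGs, 4.05% higher and 3.25% lower, and 7.05% had groups that did not overlap. Caprin2 ranked 293 by p-value and 69 by LFC.

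Caprin1 was 8130, 8446, 8485, 8527 and 8186 in the aged EH rats and 8550, 8020, 8577, 8345 and 8597 in the aged DH rats. The means of 8355 ± 183 and 8418 ± 244 (SD, n = 5 each) differed by an LFC of 0.01 (95% interval -0.06 to 0.08; limma adjusted p = 0.894). The groups overlapped, and 2.60% of genes in aged EH and 8.65% in aged DH had a smaller SD of log2 values.

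Markers of other forebrain neurones were lower in the same aged DH rats. Over all genes tested 4.05% were higher and 3.25% lower in aged DH. Of these 8 markers 5 fell, and the sum of the list was 7034 to 10709 in DH and 11955 to 19109 in EH. The groups thus did not overlap. Among these markers the vesicular glutamate transporter gene Slc17a7 had an LFC of -1.92. Of 9 magnocellular markers 3 were higher (Pdyn, Nos1 and Rasd1) and 1 was lower (the transcription factor gene Sim1), and the sums of 278205 to 395981 in EH and 333847 to 549378 in DH overlapped. Of the oligodendrocyte markers 1 of 8 was higher (266388 to 315275 in DH, 242099 to 293432 in EH), and astrocyte, microglial, endothelial and meningeal markers did not pass. The part of these cells in the aged Caprin2 result was not tested.

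The third comparison asked what age did to the basal level. Caprin2 was 1.84-fold higher in aged EH than in adult EH. In the table of this comparison the aged EH rats had 5225, 5167, 6162, 4521 and 2968 normalized counts (mean 4808 ± 1184, SD, n = 5) and the adult EH rats 2684, 1936, 2861, 2763 and 2583 (mean 2565 ± 366, SD, n = 5). The groups did not overlap, but the lowest aged rat (rat 6) exceeded the highest adult rat (rat 4) by little. The LFC was 0.88 (SE 0.158, 95% interval 0.54 to 1.22; limma adjusted p = 0.00606). In ageing 5.99% of 15369 genes were DEGs, 2.69% higher and 3.30% lower, and 6.38% had groups that did not overlap. Caprin2 ranked 182 by p-value and 127 by LFC. This comparison shares its adult EH rats with the adult DH comparison and its aged EH rats with the aged DH comparison, so the values are given side by side and not related to each other.

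In the ageing table the Caprin1 mean was 8372 ± 172 for the aged EH rats against 8164 ± 312 for the adult EH rats (SD, n = 5 each). The groups overlapped and the LFC was 0.04 (95% interval -0.03 to 0.11; limma adjusted p = 0.589). In aged EH only 2.11% of genes had a smaller SD of log2 values than Caprin1, while 91.4% had a smaller SD than Caprin2.

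Markers of several cell types differed between the ages. Over all genes tested 2.69% were higher and 3.30% lower in aged EH. Of 7 meningeal and fibroblast markers tested 4 were lower in aged EH, the sum being 8268 to 15162 in aged EH and 23253 to 28051 in adult EH, while a further marker, Col1a2, was listed at 0 in every rat. Of 8 microglial markers 4 were higher, with sums of 9970 to 11281 in aged EH and 8386 to 9445 in adult EH. Of the oligodendrocyte markers 4 of 8 were lower (242322 to 293876 in aged EH, 271216 to 395904 in adult EH), of the astrocyte markers 3 of 8 (163613 to 194113 and 164549 to 196975) and of the endothelial markers 1 of 4 (6183 to 7006 and 6917 to 7271). Of 9 magnocellular markers 2 were higher (Pdyn and the neuropeptide precursor gene Cartpt), with overlapping sums of 279982 to 396089 in aged EH and 223986 to 320264 in adult EH, and markers of other forebrain neurones did not pass. The part of these cells in the difference in Caprin2 between the ages was not tested.

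On a common scale set over all 20 rats, the mean Caprin2 count was 2508 ± 357 in adult EH, 4710 ± 1160 in aged EH, 8480 ± 1571 in aged DH and 8781 ± 744 in adult DH (SD, n = 5 each). The aged DH rats (6878 to 10937) overlapped the adult DH rats (7806 to 9710), and the other neighbours in this order did not overlap. No test between adult DH and aged DH was planned, and none was made. The corresponding Caprin1 means ran from 7981 ± 309 in adult EH to 8291 ± 253 in adult DH, and neighbouring groups overlapped throughout.

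The response to DH was smaller at 18 than at 3 months by the estimate, but the difference did not pass the threshold over all genes. The paper cites earlier work of its authors in which several transcripts, Caprin2 among them, responded less to dehydration in aged rats. The mean Caprin2 count rose by 6158 from EH to DH in adult and by 3839 in aged rats, each age on its own scale. The difference between the ages in the LFC of Caprin2 was -0.95 (SE 0.209, 95% interval -1.38 to -0.51), with an unadjusted p of 1.71e-04 and a limma adjusted p of 0.188. It ranked 11 of 15326 genes. With limma, 0% of genes passed for this difference, in either direction, and 1522 had an unadjusted p under 0.05. Without aged EH rat 6, the rat with the lowest Caprin2 count of its group, the difference was -1.11 and passed (limma adjusted p = 0.0144), as 1 of 5 genes that then did, and without any other single rat it did not pass. For Caprin1 the difference was -0.04 (95% interval -0.13 to 0.04; limma adjusted p = 0.783).

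**Figure D2:**
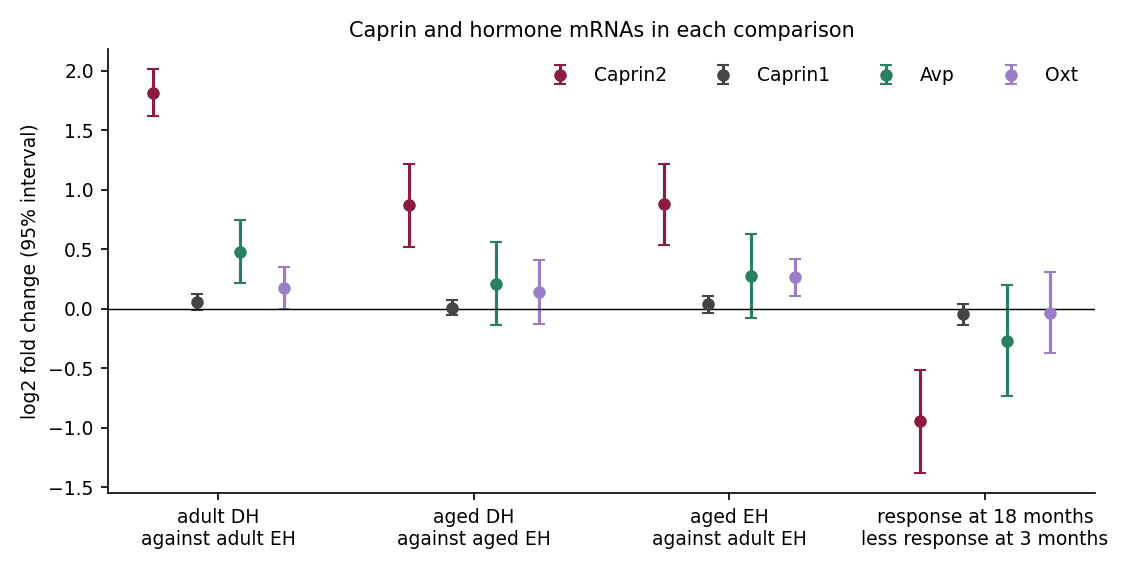
LFC with its 95% interval for Caprin2, Caprin1, Avp and Oxt in the 3 comparisons, and the response at 18 months less the response at 3 months. Caprin2 had LFCs of 1.82, 0.87 and 0.88 and a difference of -0.95, while the Caprin1 values lay between -0.04 and 0.06.

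The hormone mRNAs had smaller LFCs than Caprin2. Avp had 163773 ± 32462 normalized counts in adult EH and 225427 ± 24562 in adult DH (SD, n = 5 each), with overlapping groups and an LFC of 0.48 (limma adjusted p = 0.0221). This call was lost with RNA integrity as a covariate (limma adjusted p = 0.130), without a mean-dependent variance (0.0677), without adult EH rat 5 (0.0506) and without adult DH rat 3 (0.0587). The Avp LFC was 0.21 in aged DH and 0.28 in ageing (limma adjusted p = 0.502 and 0.388). For Oxt it was 0.17 in adult DH, 0.14 in aged DH and 0.26 in ageing (limma adjusted p = 0.187, 0.575 and 0.0524). In ageing Oxt passed with RNA integrity as a covariate (limma adjusted p = 0.0195), with array weights (0.0350), without aged EH rat 1 (0.0283) and without adult EH rat 4 (0.0458).

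A ratio of 2 genes within a library does not depend on how the library was scaled. In adult EH rats 1, 2, 4, 5 and 6 the Caprin2 count was 1.32%, 1.64%, 1.64%, 1.72% and 1.32% of the Avp count, and in adult DH rats 1 to 5 it was 4.02%, 3.39%, 3.50%, 4.39% and 3.95%. In aged EH rats 1, 2, 4, 5 and 6 the share was 2.00%, 2.97%, 2.41%, 2.24% and 2.01%, and in aged DH rats 1, 2, 3, 5 and 6 it was 4.44%, 3.05%, 3.42%, 3.94% and 3.46%. No DH rat had a share as low as any EH rat, and no aged EH rat one as low as any adult EH rat. The ratio was 2.53-fold higher in adult DH, 1.58-fold higher in aged DH and 1.52-fold higher in aged EH than in adult EH (exact permutation test, two-sided, p = 0.00794 for each, the smallest p that 5 rats against 5 allow; adjusted p = 0.0127 over 8 ratio tests). Adult EH rat 2, adult DH rat 1 and aged EH rat 6, the rats lowest in Caprin2 within their groups, were also lowest in Avp (113731, 190584 and 146514 normalized counts). Aged DH rat 3, the highest, was also highest in Avp (325751). The other extremes differed. In adult EH, adult DH and aged EH, Caprin2 was highest in rat 4, but Avp in rats 1, 3 and 1. In aged DH, Caprin2 was lowest in rat 6 and Avp in rat 1.

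Against Caprin1 the ratio rose 3.39-fold in adult DH and 1.81-fold in aged DH (exact permutation test, p = 0.00794 and adjusted p = 0.0127 for each). Between aged EH and adult EH it was 1.79-fold higher (exact permutation test, p = 0.0159, adjusted p = 0.0212), with an overlap of aged EH rat 6 (36.0%) and adult EH rat 4 (36.1%). The difference between the ages was -0.90 for the log2 ratio to Caprin1 and -0.68 for that to Avp. With labels permuted within each age, neither passed (exact permutation test, p = 0.192 and 0.198), although labels permuted in this way carry the response to DH itself into the distribution. With the residuals of an additive model of age and DH permuted instead, a test chosen after seeing the data, the unadjusted p was 0.00107 and 0.00060 (100000 permutations).

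**Figure D3:**
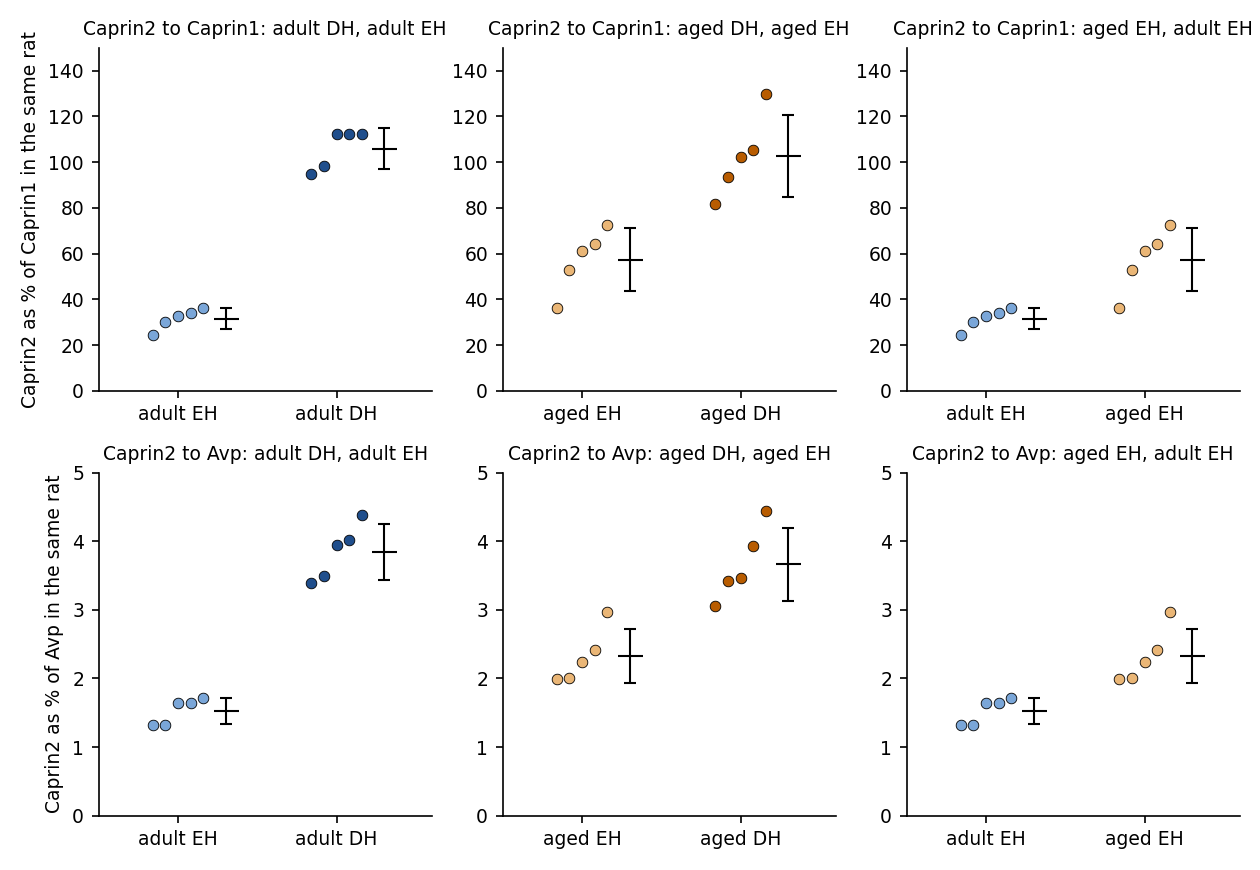
Caprin2 count as a percentage of the Caprin1 count (top row) and of the Avp count (bottom row) in the same rat, with the mean ± SD (n = 5) beside the points. The share of the Avp count was 1.32% to 1.72% in adult EH, 2.00% to 2.97% in aged EH and 3.05% to 4.44% in the DH rats, and only the ratio to Caprin1 in ageing has overlapping groups.

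The genes whose pattern was most like that of Caprin2 were sought among 12575 genes with a symbol, by the root mean square difference from Caprin2 over 20 rats of the log2 values less the EH mean of the same age. They were Opn3 (0.13), Vgf (0.23), Fam83g (0.25), Cckbr (0.28) and Creb3l1 (0.28), with a median of 1.05 over all genes and a value of 1.01 for Caprin1. Opn3 encodes an opsin of the brain, Vgf a secreted neuropeptide precursor, Cckbr a cholecystokinin receptor and Creb3l1 a transcription factor of the endoplasmic reticulum membrane.

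Opn3 had 402, 308, 502, 416 and 431 normalized counts in adult EH rats 1, 2, 4, 5 and 6 and 1301, 1271, 1570, 1513 and 1531 in adult DH rats 1 to 5. In aged EH rats 1, 2, 4, 5 and 6 it had 814, 754, 971, 823 and 499, and in aged DH rats 1, 2, 3, 5 and 6 it had 1464, 1493, 1837, 1556 and 1442. As for Caprin2, adult EH rat 2 and aged EH rat 6 were lowest in their groups and aged DH rat 3 highest, and the DH rats did not overlap the EH rats of their age. The Opn3 LFC was 1.81 in adult DH, 1.04 in aged DH and 0.83 in ageing (limma adjusted p = 2.45e-07, 6.47e-04 and 0.00717), and in ageing aged EH rat 6 overlapped the adult EH rats. Since these genes were chosen for their likeness to Caprin2 in these rats, rat by rat, their DH responses and their lowest and highest rats are a description only. Creb3l1 and Cckbr, which were near Caprin2 in DH, did not pass in ageing (LFC 0.52 and 0.37, limma adjusted p = 0.103 and 0.0664), whereas Vgf (0.43) and Fam83g (0.97) did (limma adjusted p = 0.00435 and 0.0322).

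**Figure D4:**
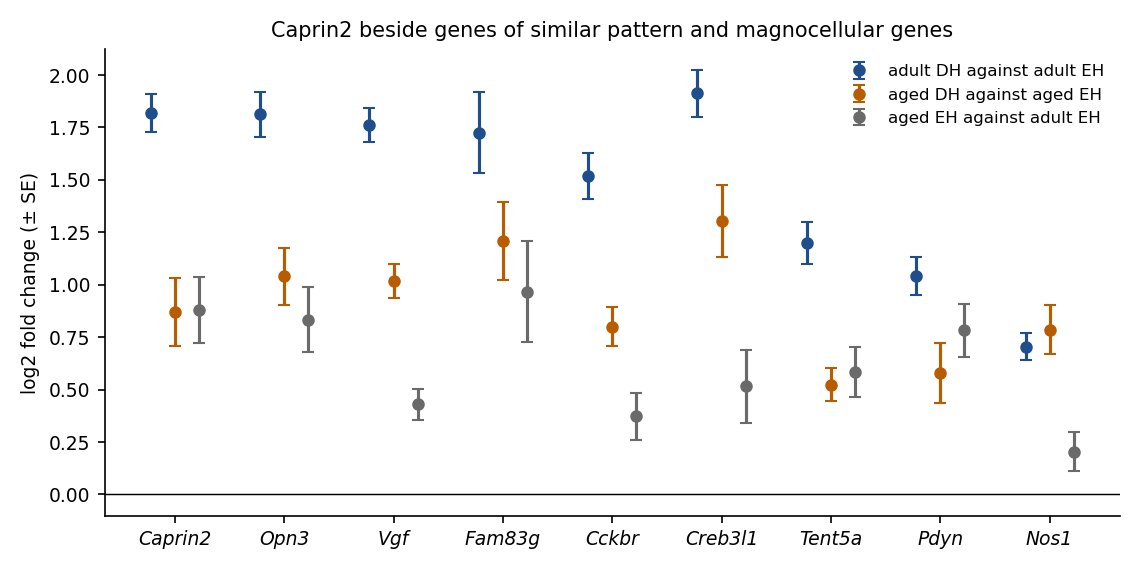
LFC ± SE in the 3 comparisons for Caprin2, for the 5 genes most like it, for the poly(A) polymerase gene Tent5a and for the magnocellular genes Pdyn and Nos1. Adult DH values exceed aged DH values for every gene shown except Nos1 (0.70 and 0.78). For the 5 genes this follows from their choice by likeness to Caprin2 in these rats and is a description only. The ageing values run from 0.20 for Nos1 to 0.97 for Fam83g.

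Because Caprin2 is known for acting on the poly(A) tail, 37 genes of poly(A) tail synthesis, binding and removal were examined, 34 of which could be tested. In adult DH 5 of them were higher and 0 lower (limma), 14.7% of the list beside 12.7% of all genes, and the median LFC was 0.04 beside -0.01 over all genes. The largest response was that of Tent5a, which encodes a non-canonical poly(A) polymerase acting on mRNAs of secreted proteins. Tent5a had 816, 600, 827, 855 and 1010 normalized counts in adult EH rats 1, 2, 4, 5 and 6 and 1851, 1828, 1976, 1954 and 1712 in adult DH rats 1 to 5. The groups lay far apart, with an LFC of 1.20 (SE 0.102; limma adjusted p = 5.82e-06). The others were Zfp36, which directs decay of AU-rich mRNAs (LFC 0.46), the canonical polymerase Papola (0.11), the poly(A)-binding protein gene Pabpc1 (0.11) and Paip2, whose product binds poly(A)-binding protein (0.10). The last 3 were not called with RNA integrity as a covariate or without a mean-dependent variance, when 2 of the list passed (limma), nor without adult EH rat 4, adult DH rat 3 or adult DH rat 4, which also left 2, and the count was 3 without adult EH rat 2 or 5 or adult DH rat 1 or 5.

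In aged rats Tent5a was 1231, 1155, 1454, 1456 and 1069 in EH rats 1, 2, 4, 5 and 6 and 1810, 1677, 1939, 1788 and 1874 in DH rats 1, 2, 3, 5 and 6. The groups did not overlap, and the LFC was 0.52 (SE 0.0785; limma adjusted p = 0.00169). Tent5a was also higher in aged EH (1275 ± 174) than in adult EH (857 ± 153, SD, n = 5 each), by an LFC of 0.58 (limma adjusted p = 0.0118), a call lost without a mean-dependent variance (0.0540). Tent5a thus passed in each comparison in which Caprin2 did, as did Opn3, Vgf, Fam83g and Pdyn, and its rank in likeness to Caprin2 was 15 of 12575. These comparisons share EH rats, and the share of all genes that passed in each of them was not counted. Its response differed between the ages by -0.68 and did not pass (limma adjusted p = 0.188). Elsewhere in the list, the nuclear poly(A)-binding protein gene Pabpn1 was lower in aged DH (-0.24) and Zfp36l1, a relative of Zfp36, was lower in ageing (-0.24). Thus 2 of 34 genes passed in each of these comparisons, 5.88% of the list beside 7.29% and 5.99% of all genes. The medians were -0.03 and 0.02, beside -0.0030 and 3.3e-04 over all genes.

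Of 25 stress granule genes tested, among them the known partners of Caprin1, 3 were higher in adult DH and 0 lower (limma), 12.0% of the list beside 12.7% of all genes. G3bp1, which nucleates stress granules with Caprin1, rose by an LFC of 0.09 (limma adjusted p = 0.0354), as did the helicase gene Ddx3x (0.10) and Pabpc1 (0.11). These 3 small changes were lost with RNA integrity as a covariate, without a filter on low values, and without adult EH rat 2 or 6 or adult DH rat 3 or 5, when 0 of 25 genes passed (limma), and the count was 1 without adult EH rat 5 or adult DH rat 2 or 4 and 6 with a mean of at least 50 required. G3bp2 (0.01), Usp10, a G3bp1-binding deubiquitinase that competes with Caprin1 (-0.04), and Fmr1 (-0.04) did not pass in adult DH (limma adjusted p = 0.853, 0.615 and 0.674), nor in aged DH or ageing. In aged DH 1 of 25 genes passed, Tia1, an RNA-binding protein of stress granules, which fell by 0.25 on the log2 scale (limma adjusted p = 0.00527). In ageing Ybx1, a cold-shock domain RNA-binding protein gene, was lower (LFC -0.17; limma adjusted p = 0.0443), a call kept only without aged EH rat 1 or adult EH rat 4 when single rats were left out. The list medians were 0.01, -0.01 and -0.0029 in adult DH, aged DH and ageing, beside -0.0073, -0.0030 and 3.3e-04 over all genes.

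Of 29 RNA transport granule genes tested, 3 passed in adult DH, 3 in aged DH and 2 in ageing, that is 10.3%, 10.3% and 6.90% of the list beside 12.7%, 7.29% and 5.99% of all genes. Igf2bp2, which binds and transports mRNAs, rose from 52.2 to 94.3 normalized counts in adult DH (LFC 0.87; limma adjusted p = 0.00193) and was lower in aged EH (26.2) than in adult EH (54.4), opposite in direction to Caprin2 in ageing (LFC -1.03; limma adjusted p = 0.00923). Khdrbs2, a neuronal splicing regulator, fell in adult DH (-0.32) and in aged DH (-0.39). The kinesin gene Kif5c rose in adult DH (0.25), its relative Kif5b rose (0.14) and the nuclear matrix RNA-binding protein gene Hnrnpu fell (-0.11) in aged DH, and the polyadenylation element binding protein gene Cpeb1 was higher in ageing (0.19). The Kif5b, Hnrnpu and Cpeb1 calls were each lost without a mean-dependent variance and without most single rats, Kif5b being kept only without aged DH rat 2, Hnrnpu only without aged DH rat 6, and Cpeb1 only without aged EH rat 6 or adult EH rat 6. The list medians were -0.0058, 0.0031 and -0.02 in adult DH, aged DH and ageing, beside -0.0073, -0.0030 and 3.3e-04 over all genes.

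Of 44 genes of Wnt and Lrp6 signalling tested, 3 passed in adult DH, 1 in aged DH and 2 in ageing (6.82%, 2.27% and 4.55% of the list beside 12.7%, 7.29% and 5.99% of all genes). Lrp6 itself and Cdk14 and Ccny, the kinase and cyclin that phosphorylate it, did not pass in any comparison (limma adjusted p = 0.0828 to 0.989), with LFCs between -0.09 and 0.08. In adult DH the receptor genes Fzd1 (-0.35) and Fzd10 (-0.26) were lower and the secreted antagonist Sfrp4 (0.42) was higher. In aged DH the feedback gene Axin2 was lower (-0.28), and in ageing Fzd10 (-0.37) and the secreted antagonist Sfrp2 (-0.88) were lower. With RNA integrity as a covariate 1 of the list passed in adult DH, as it did without adult EH rat 2 or adult DH rat 3, and in ageing 0 passed without aged EH rat 4, adult EH rat 1 or adult EH rat 5. The list medians were 0.02, -0.01 and -0.06 in adult DH, aged DH and ageing, beside -0.0073, -0.0030 and 3.3e-04 over all genes. In ageing 37 of the 44 genes had an LFC below 0 and 7 had one above 0. In the stress granule, RNA transport granule and poly(A) lists 13 of 25, 19 of 29 and 14 of 34 genes were below 0. Genes of a list need not vary independently, and the direction was not tested.

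**Figure D5:**
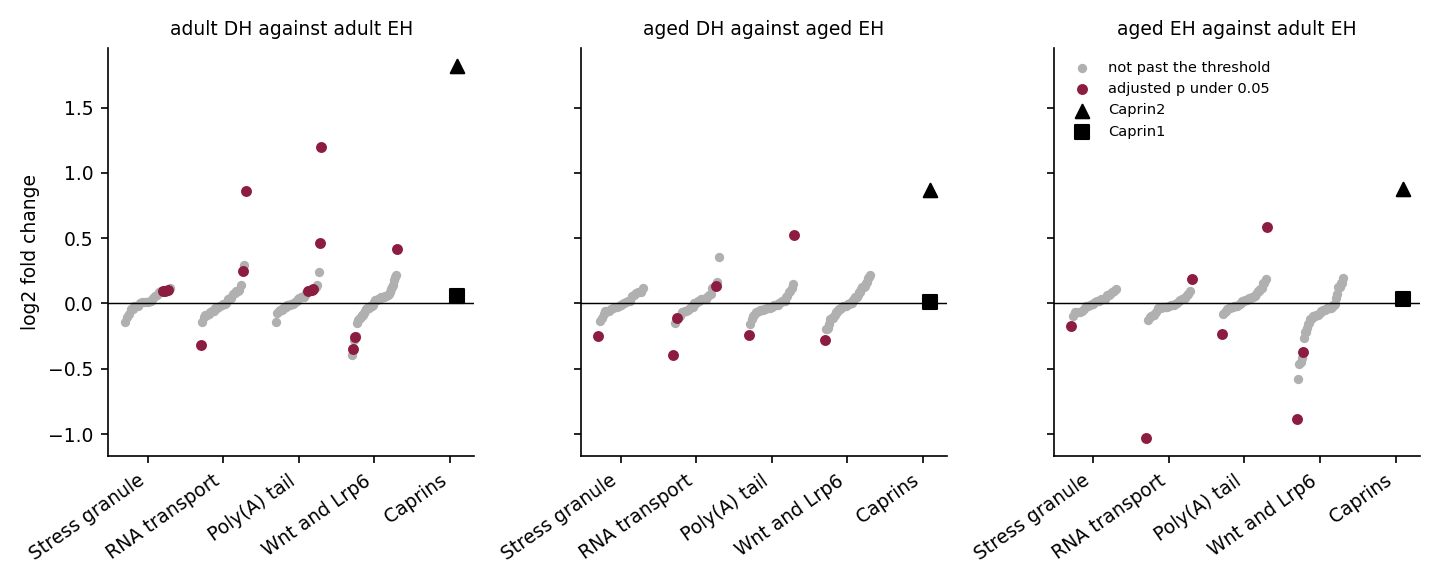
LFC of each tested gene of the 4 lists in the 3 comparisons, sorted within a list, beside Caprin2 (triangle) and Caprin1 (square). Coloured points passed at an adjusted p under 0.05. Caprin2 lies above every listed gene in each comparison (1.82, 0.87 and 0.88), and Tent5a is the highest listed gene (1.20, 0.52 and 0.58).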

How the data were processed

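Poly(A) RNA of SON punches from 20 rats was sequenced in 75 bp paired-end runs from stranded libraries, and the authors aligned reads to Rn6 with STAR and counted them with featureCounts. DESeq2 was version 1.28.1, and versions of STAR and featureCounts were not given in the sources used here. In each library the signal, as deposited by the authors, is the read count over a DESeq2 size factor estimated within each of 3 tables of 10 libraries. Columns of the authors' own means, fold changes, Wald statistics and p-values were not used. All 30 per-sample columns were used. Values above 0 were whole multiples of 1 value per library (100% within 0.1 read), which gave 24268398 to 30348118 reads per library, the same for a rat in each table that holds it. On these reads edgeR 4.0.16 and DESeq2 1.42.0 served as alternatives for adult DH only.

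Log2 of the normalized count plus 1 was tested with limma 3.58.1 (mean-dependent empirical Bayes, R 4.3.3, two-sided), for genes with a mean of at least 10, with Benjamini-Hochberg adjustment over all genes and a threshold of 0.05. The difference between the ages took each rat from the DH table of its age. In simulated data of the same designs, 200 genes were changed in each. Of these, limma recovered 87% for adult DH, 87.5% for aged DH, 91.5% for ageing and 83.5% for the difference. In the same order, 5 of 179, 10 of 185, 10 of 193 and 9 of 176 calls were false. How these shares depend on the size of the LFC was not tested. Recovery of small LFCs such as those of Caprin1, and of genes that vary as widely between rats as Caprin2, was not tested separately. Log2 ratios were compared by exact permutation. Named genes are the members, Avp, Oxt, up to 6 called genes per list and comparison, 7 defining partners, marker genes and the 5 genes most like Caprin2. The members and lists were chosen with earlier results of these data known. RNA integrity numbers of the study served only as a covariate. They varied among adult DH rats but not among adult EH rats, so calls lost with this covariate in adult DH do not show an effect of RNA integrity.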

Additional observations from a re-analysis of the deposited data

How the results depend on the processing

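The Caprin2 calls in adult DH, aged DH and ageing and the absence of a Caprin1 call in these comparisons held under every alternative run (other pseudocounts and filters on low values, TMM and upper quartile scaling, limma without trend or with array weights, RNA integrity as a covariate, each rat left out and, for adult DH, edgeR and DESeq2 on whole reads). With each rat left out, the Caprin2 LFC was 1.72 to 1.86 in adult DH, 0.70 to 0.97 in aged DH, 0.78 to 1.04 in ageing and -1.11 to -0.85 for the difference between the ages. That difference passed only without aged EH rat 6 (-1.11; limma adjusted p = 0.0144), and with any other rat left out or under another setting its limma adjusted p was 0.118 to 0.306. For the log2 ratios the difference between the ages (-0.90 to Caprin1, -0.68 to Avp) passed with residuals permuted, a test added after the data were seen, and the exact test as planned did not pass with any rat left out. The replicate block, which takes rats with the same number as a pair, changed no Caprin2 or Caprin1 call (LFC 1.81 in adult DH, 0.87 in aged DH, 0.88 in ageing, -0.93 for the difference). Among other named genes some calls were lost with it, including Avp in adult DH (limma adjusted p = 0.0875) and Tia1 (0.0580) and Khdrbs2 (0.0529) in aged DH. The numbers did not pair the rats, since deviations of same-numbered rats correlated at -0.08 to 0.16. Counts over all genes were more sensitive than the members. In adult DH 1934 DEGs became 1005 with RNA integrity and 987 with the block, in aged DH 1119 became 671 without trend, 653 with the block 678 without aged DH rat 5 and 679 without aged EH rat 5, and in ageing 921 became 516 without trend, 594 without adult EH rat 5 and 599 without aged EH rat 4. For the difference between the ages 0 DEGs became 1 without trend, with the block or without several single rats, and 5 without aged EH rat 6. The stress granule count of 3 in adult DH ranged from 0 to 6, and the poly(A) count of 5 fell to 2 with RNA integrity. Planned count models on whole reads were not run for aged DH and ageing.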
